A study of Mus musculus with 2 samples.

Results

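The cells described here are natural killer (NK) cells of the mouse spleen in which transcripts of both Cd27 and Itgam were found. They were selected on the counts themselves, as cells with at least 1 unique molecular identifier (UMI, a tag that counts single RNA molecules) of Cd27 and at least 1 of Itgam. Before that step, barcodes needed at least 500 genes, at most 10% mitochondrial UMIs and a UMI of Ncr1 or Klrb1c. They also had to hold 0 UMIs of Cd3e, Cd79a, Ms4a1 and Csf1r and at most 1 UMI of Tmem176a and Tmem176b together. These double-positive cells numbered 2124, of 9470 gated NK cells and 11607 barcodes that passed the first filters. The control library held 1125 of them and the library from mice under dietary restriction (DR) held 999.

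The series compared splenic NK cells, sorted by flow cytometry, from mice fed normally (control) and mice on dietary restriction, by droplet-based single-cell RNA sequencing. Each group was represented by 1 library, so every difference is one between these libraries, with no replicate check and no test. Strain, age, sex, the number of mice, whether they were pooled, the sorting gate and the degree and length of the restriction are not given in the sources used here. Levels are UMIs per 1000000 UMIs (CPM) of the summed cells of a class. Intervals are 95% intervals that cover counting error only. Calls rest on the size of a ratio and on its interval. A gene counted as higher from 25% above, and as lower from 20% below, the level it was compared with. The interval of the ratio also had to leave out 1. Intervals treat UMIs as independent, so they can be too narrow where few cells hold most UMIs of a gene. Only genes whose levels averaged 20 CPM or more over the classes compared were described. A gene high on only 1 side of a comparison could thus enter by that side, which favours a call in that direction.

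NK cells mature in the spleen through stages that are followed by 2 surface proteins. CD27, a costimulatory member of the TNF receptor superfamily, is carried by the less mature cells. Itgam encodes CD11b, an integrin chain that appears as cells mature, and the cells that carry both lie between the CD27-bearing and the CD11b-bearing stages. The transcription factors Eomes and T-bet (Tbx21) act along this path. The transcript of a surface protein can go unseen in a cell that carries the protein, so cells with UMIs of only 1 of these genes (Cd27-only and Itgam-only cells, below) are classes of detection rather than sorted stages.

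Across the series, the control file held 5702 barcodes and 44526828 UMIs and the DR file 6287 barcodes and 42134212 UMIs. Gated NK cells had medians of 7178 (control) and 5516 (DR) UMIs, and double-positive cells were deeper, with 8736 and 6679. Cd27-only cells were slightly deeper still, with 8898 and 6933. Cd27-only cells numbered 732 and 985 and Itgam-only cells 2294 and 1561, while 743 and 1031 gated cells had neither transcript. The libraries shared 13 barcodes, of which 5 belonged to a double-positive cell in either library and 0 in both. Mitochondrial transcripts made up 1.81% of the UMIs of double-positive cells in control and 2.62% in DR, and ribosomal protein transcripts 20.9% and 22.9%.

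Of the 10 NK markers, Cd27, Itgam, Ncr1 and Klrb1c took part in the selection, and their levels are a description. The others lay above 20 CPM in both libraries. Eomes was at 365 CPM in control and at 345 CPM in DR double-positive cells, and Prf1, which encodes perforin, at 1048 and 870.0 CPM. Ncr1, the activating receptor NKp46, was at 1164 and 1013 CPM. Cd27 (ENSMUSG00000030336, chr6:125232622-125237010, minus strand, mm10 assembly) was at 179.9 CPM in control and at 242 CPM in DR. Itgam (ENSMUSG00000030786, chr7:128062640-128118491, plus strand) was at 277 and 266 CPM. Of T cell markers, Cd8a and Cd8b1 were at 0 in control, Cd5 at 0 in DR and Cd3e at 0 in both by the gate, and the 10 genes summed to 368 and 361 CPM, led by Trbc2 at 274 and 238 CPM. The 10 B cell markers summed to 151 CPM in control and at 212 CPM in DR, with Cd79a and Ms4a1 at 0 by the gate. The 8 markers of type 1 innate lymphoid cells (ILC1) summed to 129 and 245 CPM, mostly Ltb and Il7r, none of them at 0. The 10 myeloid markers summed to 503 and 627 CPM, nearly all of it Ly6c2 and Itgax, which NK cells express too, while Lyz2 was at 1.91 and 2.56 CPM. Droplets with more than 1 cell could also hold both transcripts: the top-scoring candidate doublets were 6.04% of control and 7.41% of DR members, against 4.10% and 3.76% of Cd27-only and 3.31% and 4.36% of Itgam-only cells. These candidates were a set number of top scores, 243 of 5487 control and 364 of 6120 DR barcodes that passed the first filters. The automatic threshold of the scoring had marked 0 cells, so they are not called doublets. Without these candidates the double-positive share of gated cells was 22.6% in control and 21.2% in DR.

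Many members sat at the threshold. In the control library 201 members (17.9%) had exactly 1 UMI of each gene, at a median of 7180 UMIs, and 286 (25.4%) had at least 2 of each, at a median of 10439.5 UMIs. In the DR library 275 members (27.5%) had 1 of each and 232 (23.2%) at least 2 of each, at medians of 5308 and 8076.5 UMIs. The highest counts in a member were 10 of Cd27 and 11 of Itgam in control and 9 and 10 in DR. Just outside the threshold lay the 732 and 985 Cd27-only and the 2294 and 1561 Itgam-only cells.

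Double-positive cells made up 23.0% of gated NK cells in the control library (exact Clopper-Pearson interval 21.8 to 24.2) and 21.8% in the DR library (20.6 to 23.1). The share depended on depth. With each cell thinned to 3000 UMIs, which left out 271 control and 213 DR cells, it was 6.79% in control (314 of 4623 cells, 6.08 to 7.56) and 8.23% in DR (359 of 4363 cells, 7.43 to 9.08). The order of the libraries thus turned with the thinning, and no order is read from it. The plot of the share by depth shows the same dependence: in control it was 4.34% under 4000 UMIs, 14.1% from 4000 to 6000, 20.7% from 6000 to 9000 and 38.3% from 9000 up. In DR it was 9.05%, 16.1%, 30.4% and 37.4%. The DR share was the higher one under 4000 and from 6000 to 9000 UMIs, and in the other ranges the intervals overlapped.

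**Figure D1:**
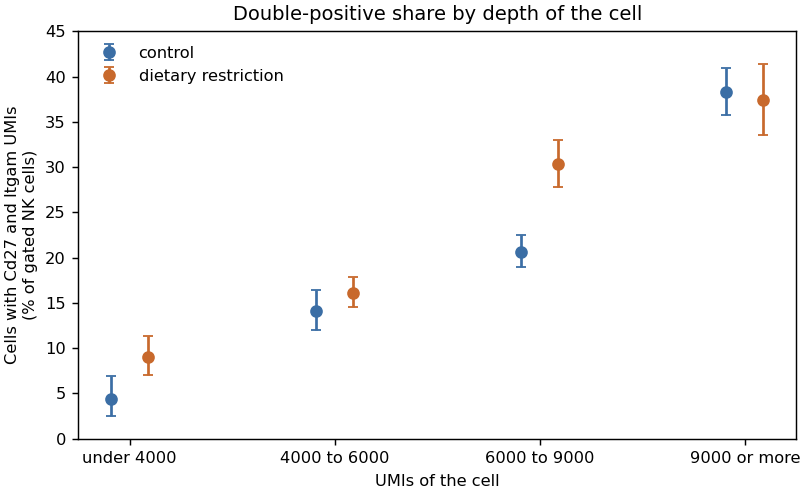
Share of gated NK cells with UMIs of both Cd27 and Itgam (y axis, %) by the number of UMIs of the cell (x axis), in the control and DR libraries. Points are shares and bars exact Clopper-Pearson intervals of 95%; the share climbed with depth, from 4.34% to 38.3% in control and from 9.05% to 37.4% in DR.

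At 3000 UMIs, Itgam was found less often in cells with Cd27 than in cells without it, in 35.2% against 49.7% in control and in 32.2% against 43.1% in DR, with intervals that did not overlap. B cells, with a UMI of Cd79a and of Ms4a1 and none of Ncr1 and Klrb1c, were set beside these cells. The last condition leaves out B cells that had taken up these NK transcripts. Their rates of other NK transcripts can thus be too low, and they do not measure RNA from outside the cell. Itgam was found in 3 of 93 control and 5 of 399 DR B cells, and both transcripts in 1 control and 0 DR B cells, a count that allows up to 0.920% of the latter by the exact interval. Cd27, which some B cells express, was found in 14.0% and 14.3% of them. Their median depths were 8194 and 6611 UMIs, near those of the double-positive cells.

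The first comparison asked how double-positive cells differed from Cd27-only cells. In both libraries they carried more of most listed transcripts of mature NK cells and less of most of those of immature cells. Klrg1, an inhibitory receptor of mature NK cells (ENSMUSG00000030114, chr6:122270596-122282882, minus strand), was at 172 CPM in control double-positive and 41.2 CPM in control Cd27-only cells, and at 79.9 and 32.5 CPM in DR. Its log2 ratio was 2.07 (1.88 to 2.25) in control and 1.30 (1.08 to 1.52) in DR. Of 5609 genes described, 229 (4.08%) were higher and 130 (2.32%) lower in double-positive cells in both libraries. With a total that left out mitochondrial and ribosomal protein transcripts the counts were 159 and 221, and with median-of-ratios scaling 187 and 148. Cd27-only cells held more ribosomal protein transcripts, 23.8% of UMIs in control and 25.7% in DR, so the balance of higher and lower genes depends on that choice. The median log2 ratio of all genes was 0.025 in control and 0.045 in DR.

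Besides Klrg1, the genes that ranked highest for their excess over Cd27-only cells were Cma1, Zeb2, Gzma, Rac3, Lgals1, S1pr5 and S100a6. Cma1, a chymase, was at 265 against 79.1 CPM in control and at 206 against 98.9 CPM in DR. Zeb2, a zinc finger factor of terminal NK maturation, was at 593 against 279 CPM and at 379 against 206 CPM. Gzma, which encodes granzyme A, was at 12464 against 5708 CPM and at 10755 against 6365 CPM. All 4 of these, Klrg1 included, were thus higher in double-positive cells in each library, and their log2 ratios were smaller in DR. S1pr5, the sphingosine-1-phosphate receptor that NK cells use to leave lymphoid tissue, had log2 ratios of 0.94 and 0.84. Rac3, a small GTPase, had 1.10 and 1.06, and Lgals1 (galectin-1) 0.90 and 0.76. When classes were formed from cells thinned to 3000 UMIs, the Klrg1 ratios were 1.41 and 0.46 and the DR ratio of Rac3 was 0.19.

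The genes that ranked lowest against Cd27-only cells were Batf3, Kit, Xcl1, Cd160, Crtam, Cd7, Dtx1 and Nrgn. Batf3, an AP-1 family factor, was at 6.45 CPM in control double-positive cells against 48.9 CPM in Cd27-only cells, and at 6.88 against 48.8 CPM in DR. Kit, the stem cell factor receptor of immature NK cells, was at 44.0 against 119 CPM and at 20.6 against 69.1 CPM. Both were lower in double-positive cells in each library. Xcl1, a chemokine that draws cross-presenting dendritic cells, was at 359 against 944 CPM and at 282 against 699.6 CPM. Cd160, a receptor of immature NK cells and other innate lymphocytes, had log2 ratios of -1.69 and -1.32, and Crtam, an adhesion receptor of cytotoxic lymphocytes, -1.60 and -1.36. Markers of T cells and ILC1 moved with these genes: the 10 T cell markers summed to 607 CPM in control and at 553 CPM in DR Cd27-only cells, and the 8 ILC1 markers to 645 and 689 CPM. Cd3d, a T cell receptor complex gene also found in immature NK cells, had a UMI in 8.36% of control and 5.51% of DR double-positive cells, and in 18.7% and 18.1% of Cd27-only cells. Under a stricter gate, with 0 UMIs of Cd3d, Cd3g, Cd79b and Lyz2 among its conditions, Batf3 lay under the 20 CPM limit and had no ratio, and Kit stayed past the limit at -1.27 and -1.57. The part of other cell types in the remaining difference was not tested.

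The gene lists were chosen with earlier results of these data known, so counts over them are a description. Listed by role, 9 of 12 described mature NK genes were higher than in Cd27-only cells in both libraries and 0 lower, with median log2 ratios of 0.95 in control and 0.64 in DR. Of 13 immature NK genes, 9 were lower and 2 higher, with medians of -1.18 and -0.53. Ifngr1, a chain of the interferon gamma receptor, was among the higher ones. Among 11 cytotoxic effectors, Gzma, Gzmb, Prf1 (perforin) and Serpinb9, an inhibitor of granzyme B, were higher and Gzmm (granzyme M) lower. Among 7 cytokines and chemokines, 0 were higher and Xcl1, Ccl3, Ccl4 and Ltb lower. Ltb (lymphotoxin beta) was at 91.6 CPM in double-positive against 442 CPM in Cd27-only cells of control, and at 168 against 433 CPM in DR. Of 20 transcription factors, Prdm1 (Blimp-1) and Klf2 were higher and Tcf7 (TCF-1), Tox and Ikzf2 (Helios) lower. Eomes had ratios of 0.28 and 0.30 and Tbx21 of 0.41 and 0.25, which did not pass the limit in both libraries. Of 16 homing and adhesion genes, 8 were higher, among them S1pr1, S1pr5, Ly6c2 and the integrin genes Itga2, Itga4, Itgb1 and Itgb7, and Cxcr3 and Cd69 were lower, with medians of 0.42 and 0.33. Of 9 inhibitory receptors, Klrg1 and Klra9 were higher, and of 15 activating receptors and adaptors, Cd226, Slamf6 and Slamf7 were lower. Of 13 cytokine receptors, Il18r1, Il18rap, Il12rb2, Il10ra and Ifngr1 were higher and Il7r, Il21r and Kit lower. Ifngr1 and Il21r missed the limit in 4 alternatives each, the stricter gate among them, Il12rb2 in 3 and Il18rap in 2. Among the genes named before these, S1pr1 missed it in 3 alternatives and Klf2, Klra9, Slamf7 and Ccl3 in 2 each. Prdm1, Tox and Ikzf2 missed it with classes formed at 3000 UMIs. Il7r, the interleukin-7 receptor chain, was at 21.9 CPM against 138 CPM in control and 57.1 against 187 CPM in DR. Of 14 genes of ribosome biogenesis and growth, Fbl, Nolc1, Odc1 and Nme1 were lower and 0 higher, with medians of -0.46 and -0.26. None of these 4 kept its call when only cells of 4000 to 9000 UMIs were compared.

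The second comparison set the double-positive cells against Itgam-only cells. It shares the double-positive cells with the first, so the values stand side by side and are not set against each other. Here double-positive cells carried more of most listed immature and less of most listed mature transcripts. Emb (embigin, a cell adhesion molecule) was at 84.7 CPM in control double-positive cells against 14.4 CPM in Itgam-only cells, and at 170.4 against 41.9 CPM in DR. Its log2 ratios were 2.55 (2.35 to 2.77) and 2.02 (1.85 to 2.20). Of 5640 genes described, 92 (1.63%) were higher and 99 (1.76%) lower in both libraries. Without mitochondrial and ribosomal protein transcripts in the total the counts were 184 and 68, and with median-of-ratios scaling 119 and 76, so this balance too rests on the scaling. Itgam-only cells held fewer ribosomal protein transcripts, 17.2% and 19.1%, and fewer UMIs, with medians of 6717.5 and 5045. The median log2 ratio of all genes was -0.060 and -0.056.

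After Emb the genes with the largest excess over Itgam-only cells were Thy1, Tcf7, Cd160, Xcl1, Crtam, Ctla2a and Cxcr3. Thy1, a surface glycoprotein of T cells and immature NK cells, was at 112 against 41.5 CPM in control and 169 against 60.0 CPM in DR. Tcf7 was at 70.2 against 20.8 CPM and 86.9 against 32.9 CPM. Cxcr3, the receptor for interferon-induced chemokines, was at 49.4 against 12.5 CPM and 92.2 against 40.5 CPM. Double-positive cells were thus at more than the Itgam-only level of all 3 in each library. Ltb, a list member, was at 16.4 CPM in control and at 43.3 CPM in DR Itgam-only cells, for log2 ratios of 2.48 and 1.95. With classes formed at 3000 UMIs, the control ratios were 1.85 for Emb, 0.84 for Thy1 and 1.11 for Tcf7.

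The genes that ranked lowest against Itgam-only cells were Cx3cr1, Kcnj8, Rac3, Cma1, Klrg1, Entpd1, Gzmb and Timp2. Cx3cr1, the fractalkine receptor of the most mature NK cells (ENSMUSG00000052336, chr9:119901616-120069879, minus strand), was at 81.1 CPM in control double-positive and 203 CPM in Itgam-only cells. In DR it was at 11.5 and 40.7 CPM. The log2 ratios were -1.33 (-1.43 to -1.22) and -1.83 (-2.19 to -1.48). Kcnj8, a potassium channel subunit, had -1.40 and -1.16, Entpd1 (the ectonucleotidase CD39) -1.02 and -1.13, and Gzmb (granzyme B) -0.84 and -0.90. Klrg1, higher than in Cd27-only cells, was lower than in Itgam-only cells by -0.96 and -1.13. With members redefined by at least 2 UMIs of each gene, the control ratios were -2.01 for Cx3cr1 and -2.37 for Kcnj8.

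Of 10 described immature NK genes, 6 were higher than in Itgam-only cells in both libraries and 0 lower, with medians of 1.12 and 0.71. Of 13 mature genes, 10 were lower and only Itgax, the integrin chain CD11c, was higher, with medians of -0.64 and -0.74. Among 10 effectors, Gzma, Gzmb, Prf1 and Fasl were lower. Among 17 homing and adhesion genes, S1pr1, Cxcr3, Ccr2 and Cd69 were higher and S1pr5, Cx3cr1 and Ly6c2 lower. Ccr2, a chemokine receptor of cells that travel from bone marrow to inflamed tissue, was at 426 against 173 CPM in control and 505 against 246 CPM in DR, near its Cd27-only levels of 437 and 452 CPM. Among 9 inhibitory receptors, Klrg1, Klra3, Klra9 and Klrb1b were lower. Klrb1b missed the limit in 6 alternatives and Klra3 at a ratio of at least 1.5. Fasl missed it in 3 alternatives, and Gzma, Prf1 and S1pr5 in 2 each. The Klra genes are close paralogues, and how reads shared between them were counted is not given in the sources used here, so their values are uncertain. Of 14 growth genes, only Myc was higher, at 32.1 against 17.5 CPM and 30.1 against 18.5 CPM.

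**Figure D2:**
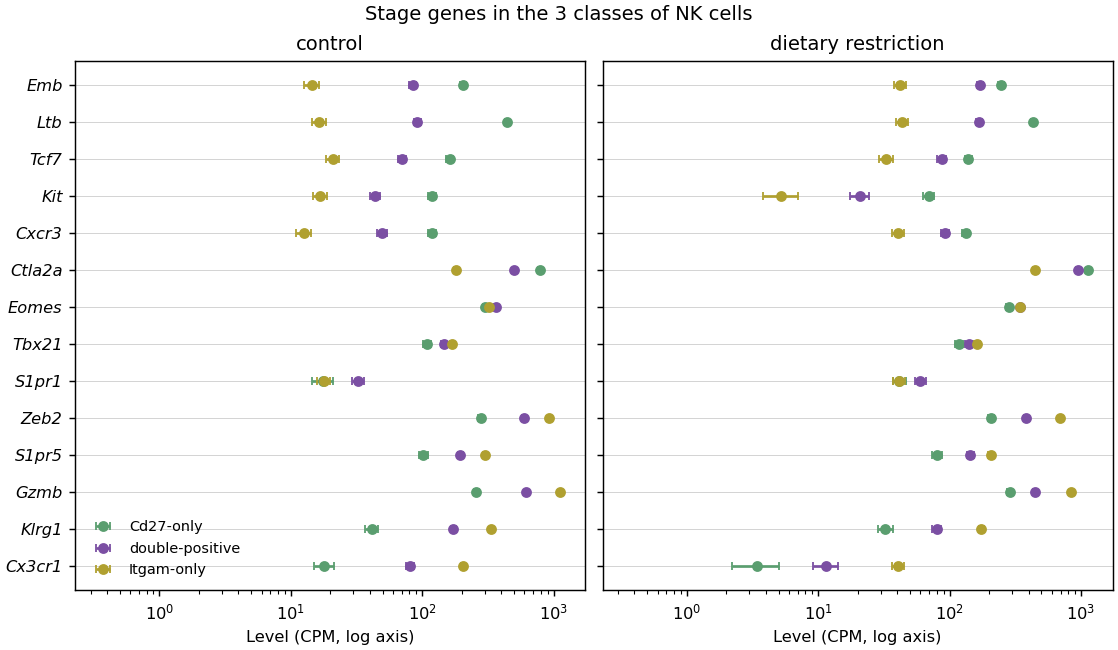
Levels of 14 named genes (x axis, CPM on a log axis) in Cd27-only, double-positive and Itgam-only cells of the control and DR libraries. Points are summed counts and bars exact Poisson intervals of 95%; for most genes the double-positive level lies between the single-positive levels, and S1pr1 lies above both, at 32.5 CPM in control and at 60.1 CPM in DR.

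Where the double-positive cells lay between the single-positive classes was read gene by gene on the log2 scale, with 0 for the Cd27-only and 1 for the Itgam-only level. Genes at least 1.5-fold apart between the single-positive classes were picked in one library and read in the other. Of 380 genes picked in DR, 358 were read in control, and of 551 picked in control, 490 were read in DR. The others were left out by conditions that also used the reading library, so choice and reading were not fully apart. How far this raised the shares that lay between the single-positive levels was not tested. Read in control, 358 genes had a median position of 0.61 (quartiles 0.45 and 0.71), and 95.3% lay between the single-positive levels. Read in DR, 490 genes had a median of 0.52 (0.40 and 0.66), with 95.5% in between. Over the 307 genes read in both libraries the medians were 0.61 in control and 0.52 in DR. Double-positive cells of the DR library thus lay nearer the Cd27-only level than those of the control library. Among cells of 4000 to 9000 UMIs the medians were 0.652 and 0.475, and with cells thinned to 3000 UMIs the medians were 0.559 and 0.520. Genes higher in Itgam-only cells had medians of 0.63 and 0.55, and genes higher in Cd27-only cells 0.52 and 0.47.

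**Figure D3:**
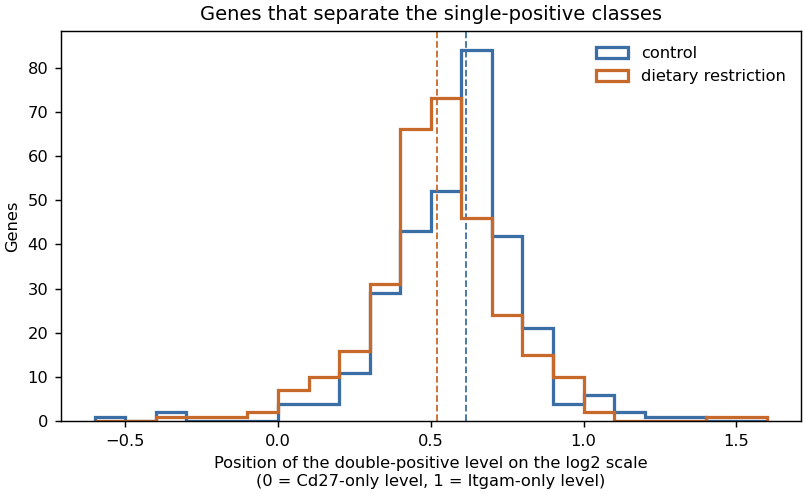
Number of genes (y axis) by the position of the double-positive level between the Cd27-only level (0) and the Itgam-only level (1) on the log2 scale (x axis), for the 307 genes read in both libraries, with values beyond the axis placed in the end bins. Dashed lines are the medians, 0.61 for control and 0.52 for DR.

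Some genes lay farther than the median toward 1 of the single-positive levels in both libraries. Among 78 genes that were at least 2-fold apart, those nearest the Cd27-only level were Mfsd6, Cmtm7, Thy1, Slc25a4, Aff3, Kbtbd11, Ctla2a and Emb. This ranking was set up after the values had been seen. Thy1 lay at position 0.13 in control and 0.068 in DR, since its levels of 112 and 169 CPM were close to the Cd27-only levels of 131 and 183 CPM. Nearest the Itgam-only level were Il4ra, Aim2, Crybg1, Fry, Rap1gap2, Lgals1, Fcgr2b and Ikzf2. Il4ra, the interleukin-4 receptor chain, lay at 1.001 and 0.82, and Aim2, a sensor of cytosolic DNA, at 0.87 and 0.78. Ikzf2, at 0.76 and 0.60, was at 16.5 CPM in control and at 17.3 CPM in DR double-positive cells, against 36.4 and 28.3 CPM in Cd27-only cells. In DR, Lgals1 at 0.63, Fcgr2b at 0.65 and Ikzf2 lay inside the quartiles of all genes read there, 0.40 and 0.66. Il4ra, at 16.2 and 22.4 CPM in double-positive cells, and Aim2, at 21.3 and 16.3 CPM, were low too. The positions carry no interval.

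A few genes lay outside the range of both single-positive classes in each library, past the limit against each of them. They were also picked after the values had been seen. S1pr1, the sphingosine-1-phosphate receptor of lymphocyte egress (ENSMUSG00000045092, chr3:115710433-115715072, minus strand), was at 32.5 CPM in control double-positive cells, against 17.6 in Cd27-only and 17.8 in Itgam-only cells. In DR the levels were 60.1, 41.5 and 41.3 CPM. Double-positive cells had the highest S1pr1 level of the 3 classes in each library. Cd55, a membrane protein that restrains complement (ENSMUSG00000026399, chr1:130439027-130462744, minus strand), was at 68.9 CPM against 49.8 and 45.1 CPM in control, and at 46.0 against 28.8 and 28.9 CPM in DR. Rgs1, a regulator of G protein signalling that dampens chemokine responses (ENSMUSG00000026358, chr1:144242296-144249242, minus strand), was lowest in double-positive cells, at 62.0 CPM against 99.97 and 81.2 CPM, and in DR at 49.4 against 84.6 and 68.8 CPM. Arl5c and Cmah were the other genes above both, and Cym the other gene below both. Among cells of 4000 to 9000 UMIs, Cd55 and Rgs1 kept all 4 calls, while S1pr1 had log2 ratios of 0.43 in control and 0.26 in DR against Cd27-only cells and no longer passed there. Cd55 fell short under the stricter gate, at 0.29 against Cd27-only cells in control, and Rgs1 with the total that left out mitochondrial and ribosomal protein transcripts, at -0.32 against Itgam-only cells in control. Cmah fell short without candidate doublets, and Cym with at least 2 UMIs of each selection gene. With classes formed at 3000 UMIs, or at a ratio of at least 1.5, none of the 6 passed in all 4 comparisons.

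The double-positive cells were divided by which of Cd27 and Itgam had more UMIs. The split uses the selection genes, so the values are a description and support nothing further. Cd27 had more UMIs in 241 control and 277 DR members, both had the same number in 281 and 368, and Itgam had more in 603 and 354. Klrg1 went from 68.2 CPM where Cd27 had more, to 154 CPM at equal counts and 229 CPM where Itgam had more in control, and from 43.2 to 75.6 and 115 CPM in DR. Cx3cr1 went from 12.0 to 64.1 and 121 CPM in control and from 3.89 to 7.90 and 21.2 CPM in DR. Zeb2 went from 342 to 716 CPM and from 253 to 469 CPM between the outer groups. All 3 mature genes were lowest where Cd27 had more and highest where Itgam had more. Ltb went the other way, from 132 to 106 and 66.9 CPM in control and from 249.8 to 136 and 125 CPM in DR. Emb followed Ltb in control, from 153 to 76.4 and 56.1 CPM, while in DR it was at 255, 125 and 139 CPM. Eomes was between 358 and 381 CPM in the 3 control groups and between 327 and 354 CPM in the 3 DR groups. The groups differed in depth, with medians of 10225, 7737 and 8630 UMIs in control and 7816, 5841 and 6783.5 in DR.

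The balance of stage transcripts was also read in single cells. Each cell was thinned to 3000 UMIs, and its UMIs of the immature and mature lists were summed, with Ccl5 left out because it alone supplied 81.3% of the mature UMIs in control and 84.4% in DR double-positive cells. Leaving it out was decided after the data had been seen, and the lists were chosen with earlier results of these data known. Control double-positive cells had a median of 10 mature and 6 immature UMIs, and DR cells 8 of each. The median difference of mature minus immature UMIs was 4 in control (quartiles -2 and 11, 1116 cells) and 0 in DR (-6 and 6, 981 cells). It was -5 in Cd27-only cells of both libraries, and 14 in control and 9 in DR Itgam-only cells. Mature UMIs outnumbered immature ones in 66.4% of control and 47.2% of DR double-positive cells, against 29.6% and 25.8% of Cd27-only and 92.3% and 82.6% of Itgam-only cells. The spread within the double-positive class reached into both other classes, as the plot of the balance shows.

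**Figure D4:**
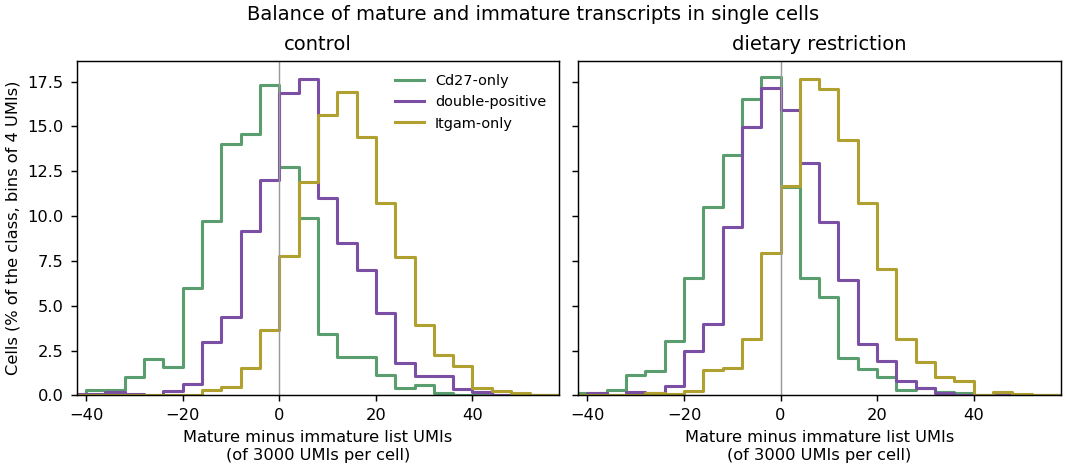
Mature minus immature list UMIs of single cells at 3000 UMIs each (x axis) against the share of the class (y axis, %, bins of 4 UMIs), for the 3 classes in the control and DR libraries. The double-positive curve lies between the others, with a median of 4 in control and 0 in DR, and overlaps both.

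The third comparison set DR against control double-positive cells. In the DR library these cells held less of several mature and of the cell cycle transcripts and more of several immature ones. Of 5798 genes described, 271 (4.67%) were higher and 571 (9.85%) lower, and the median log2 ratio of all genes was -0.053. With a total that left out mitochondrial and ribosomal protein transcripts 530 were higher and 414 lower, and with median-of-ratios scaling 351 and 431, so that which direction held more genes turned with the first of these. The same comparison called 219 (3.77%) genes higher and 633 (10.9%) lower among 5807 in Cd27-only cells, and 260 (4.42%) higher and 528 (8.97%) lower among 5884 in Itgam-only cells. Depth and mitochondrial share differed between the libraries as given above and cannot be told apart from the groups.

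Klrg1 was at 172 CPM in control and at 79.9 CPM in DR double-positive cells, a log2 ratio of -1.11 (-1.25 to -0.98). It was -0.34 in Cd27-only and -0.94 in Itgam-only cells. Cx3cr1 was at 81.1 and 11.5 CPM, a log2 ratio of -2.82 (-3.16 to -2.50), beside -2.32 in Itgam-only cells. Both were lower in the DR library in every class, although Cx3cr1 in Cd27-only cells lay under the 20 CPM limit. The lower levels went with fewer cells in which the transcripts were found. Klrg1 had a UMI in 52.4% of control (49.4 to 55.3) and 29.3% of DR double-positive cells (26.5 to 32.3), and in 33.2% and 18.3% at 3000 UMIs. Cx3cr1 had a UMI in 24.2% and 4.60%, and in 15.6% and 3.06% at 3000 UMIs. Either transcript was found in 645 control members (57.3%) and 305 DR members (30.5%), against 1 of 93 control and 3 of 399 DR B cells. The B cells were chosen to hold no UMI of Ncr1 and Klrb1c, which can lower their counts. Zeb2 had a log2 ratio of -0.65 (-0.71 to -0.58), S1pr5 of -0.44 (-0.55 to -0.33) and Gzmb of -0.47 (-0.53 to -0.41), all lower in DR. Of the 13 mature NK genes, 7 were lower and 1 higher, with a median of -0.36. The higher one was Ly6c2, which encodes a Ly6C antigen and is also a myeloid marker, at 349.8 CPM in control and at 464 CPM in DR, and its ratio turned to -0.10 among cells of 4000 to 9000 UMIs. Among 12 described genes of the list in Cd27-only cells 3 were lower and 2 higher (median 0.00040), and among 13 in Itgam-only cells 6 were lower and 1 higher (median -0.29).

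Of the 13 immature NK genes, 8 were higher and 2 lower in DR double-positive cells, with a median of 0.71. Emb was at 84.7 CPM in control and at 170.4 CPM in DR, a log2 ratio of 1.01 (0.89 to 1.13). Il7r was at 21.9 and 57.1 CPM, a ratio of 1.38 (1.15 to 1.62), and Ctla2a, an inhibitor of cysteine proteases, at 502 and 945 CPM, a ratio of 0.91 (0.86 to 0.96). The DR library was the higher one for all 3. Cxcr3 had 0.90, Ltb 0.87, Cxcr4, the receptor that holds cells in bone marrow, 0.71 and Slamf6 0.72. The lower ones were Kit, at 44.0 and 20.6 CPM with a ratio of -1.09 (-1.36 to -0.83), and Xcl1, at 359 and 282 CPM, whose ratio turned to 0.21 among cells of 4000 to 9000 UMIs. In that depth range the ratios of Emb and Ltb were larger, at 1.87 and 1.53. In Cd27-only cells 4 of the 13 were higher and 2 lower (median 0.13), and in Itgam-only cells 7 of 10 were higher and 0 lower (median 0.89). Emb had 0.27 in Cd27-only and 1.54 in Itgam-only cells, and Cxcr3 0.15 and 1.69. Whether the ratios differed between classes was not tested. The ILC1 markers besides Ltb and Il7r were low in both libraries, with Tmem176a at 0.273 and 0.540 CPM and Cxcr6 at 0.636 and 1.21 CPM, and their part in these ratios was not tested. Ltb had a UMI in 92.5% of control and 94.2% of DR B cells. The B cell transcript Igkc was at 10.5 CPM in control and at 28.5 CPM in DR double-positive cells, and was found in 7.91% and 15.7% of them. It was found in 7.24% and 14.3% of Cd27-only cells, where Ltb was at 442 and 433 CPM. In Itgam-only cells Igkc was found in 7.11% and 14.2%, with Ltb at 16.4 and 43.3 CPM. The Ltb ratio was 1.10 under the stricter gate and 0.45 with at least 2 UMIs of each selection gene, and the part of B cell RNA in it was not tested.

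The highest-ranked genes in DR double-positive cells were Sla2, Dhrs3, Emb, Cirbp, Ssbp2, Ctla2a, Bicd1 and Rnf157. Sla2, an adaptor that dampens antigen receptor signalling, was at 22.1 CPM in control and at 57.9 CPM in DR, a log2 ratio of 1.39 (1.16 to 1.62), beside 1.49 in Cd27-only and 1.29 in Itgam-only cells. Dhrs3, a retinal reductase, was at 24.4 and 53.6 CPM, a ratio of 1.13 (0.90 to 1.36). Cirbp, an RNA-binding protein induced by cold, was at 141 and 277 CPM, a ratio of 0.97 (0.88 to 1.07), beside 0.91 and 0.86. These 3 were higher in the DR library in each of the 3 classes and so were not seen in double-positive cells alone. With classes formed at 3000 UMIs the Sla2 ratio was 0.76.

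**Figure D5:**
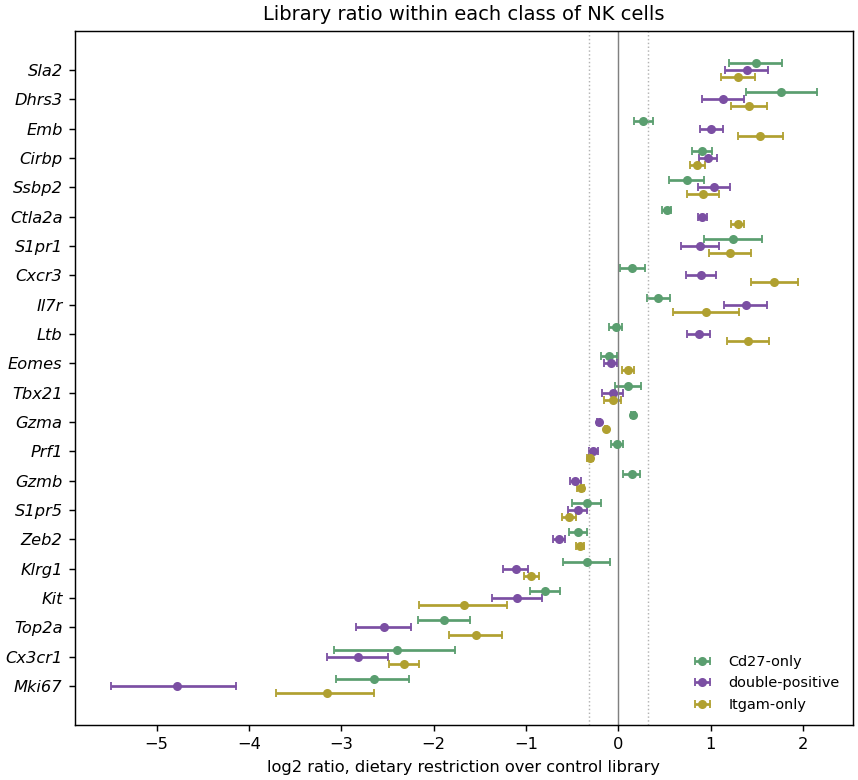
Log2 ratio of DR over control (x axis) of 22 named genes in Cd27-only, double-positive and Itgam-only cells. Points are ratios of summed counts, bars exact conditional binomial intervals of 95%, and dotted lines the limits of 25% higher and 20% lower; in double-positive cells Klrg1 lies at -1.11, Cx3cr1 at -2.82 and Emb at 1.01.

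Of the 8 lowest-ranked genes, Cx3cr1 was the fourth, and the others were Mki67, Hist1h3c, Hist1h1b, Pclaf, Hist1h2ae, Top2a and Stmn1, transcripts that are high in dividing cells. Mki67, which encodes the proliferation antigen Ki-67, was at 74.2 CPM in control (816 UMIs) and 2.70 CPM in DR double-positive cells (20 UMIs), a log2 ratio of -4.78 (-5.50 to -4.14). Top2a, a DNA topoisomerase, was at 83.8 and 14.4 CPM, and Pclaf, a partner of the replication clamp, at 46.7 and 6.34 CPM. Hist1h3c, Hist1h1b and Hist1h2ae, replication-dependent histone genes, had log2 ratios of -4.46, -3.29 and -2.67. Of 12 cell cycle genes, 11 were lower and 0 higher, with a median of -0.75. In Cd27-only cells 10 of 12 were lower, and in Itgam-only cells 2 of 10. Mki67, Top2a, Pclaf and the histone genes lay under 20 CPM in DR double-positive cells. They were described because of their control levels. Genes that enter in this way can hardly be called higher, so these counts and the lowest ranks are a description. Cells with at least 3 UMIs over 7 cell cycle genes numbered 43 of 1125 in control (3.82%, 2.78 to 5.11) and 7 of 999 in DR (0.701%, 0.282 to 1.44), and 22 (1.97%) and 1 (0.102%) at 3000 UMIs. Leaving these cells out lowers cell cycle levels by construction. Without them Mki67 was at 4.51 CPM in control and at 0.819 CPM in DR, Top2a at 11.3 and 8.19 CPM and Pclaf at 0.589 and 1.502 CPM, all under the 20 CPM limit. Stmn1, a microtubule regulator, was then at 73.2 and 50.9 CPM, and its ratio went from -1.77 to -0.52, while Mcm3 went from -0.66 to -0.022, Mcm5 from -0.83 to -0.32 and Tuba1b from -0.93 to -0.11, past the limit no longer, and Tubb5 turned to 0.16. These 3 calls were also lost, and Tubb5 turned, among cells of 4000 to 9000 UMIs. Cycling cells made up 4.37% of control and 1.12% of DR Cd27-only cells and 1.31% and 0.384% of Itgam-only cells.

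Of 10 effectors, Gzmb was lower in DR double-positive cells and 0 were higher, shares near the 9.85% and 4.67% of all genes called lower and higher, and Gzma and Prf1 had log2 ratios of -0.21 and -0.27, inside the limit. Ifng had -0.11 (-0.30 to 0.074), Eomes -0.083 (-0.16 to -0.011) and Tbx21 -0.060 (-0.17 to 0.054), none past the limit. Of 19 transcription factors, Lef1, a partner of TCF-1, was higher and Tox and Ikzf3 (Aiolos) lower, again near those shares. Of 7 cytokines and chemokines, Xcl1, Ccl3 and Ccl4 were lower and Ltb higher, with Ccl3 at 151 CPM in control and at 63.7 CPM in DR and Ccl4 at 323 and 155 CPM. Of 8 interferon response genes, 5 were lower, among them Isg15, Irf9, Xaf1 and Ifi203, and 0 higher, with a median of -0.42. Isg15, a ubiquitin-like modifier, was at 30.4 and 16.1 CPM. In Cd27-only cells 5 of 8 and in Itgam-only cells 4 of 9 of these genes were lower, with medians of -0.33 and -0.24.

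Among 7 genes known to respond to glucocorticoids, Tsc22d3, Ddit4, Cxcr4 and Il7r were higher and Sgk1 and Nr3c1 lower in DR double-positive cells, with a median of 0.59. Tsc22d3, which encodes the glucocorticoid-induced leucine zipper protein, was at 143 CPM in control and at 234 CPM in DR, a ratio of 0.71 (0.61 to 0.81). Sgk1, a serum and glucocorticoid-regulated kinase, was at 49.7 and 22.3 CPM, and Nr3c1, the glucocorticoid receptor itself, at 123 and 86.1 CPM. The members of this list thus did not move one way. Of 12 targets of FOXO factors, S1pr1, Il7r, Pik3ip1 and Bcl2l11 were higher and Sesn3 lower, with a median of 0.16. Bcl2l11 missed the limit in 2 alternatives. The lists share members: Il7r is in both of these lists and in the immature and cytokine receptor lists. Cxcr4 is also in the immature and homing lists and S1pr1 in the homing list, so the list counts are not separate results. S1pr1 was at 32.5 CPM in control and at 60.1 CPM in DR, a ratio of 0.88 (0.68 to 1.09), and Pik3ip1, an inhibitor of phosphoinositide 3-kinase, at 20.5 and 39.8 CPM.

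Over all genes described, 4.67% were called higher and 9.85% lower in DR double-positive cells, beside which the list counts stand. Of 15 activating receptors and adaptors, Cd226 and Slamf6 were higher and Klra8, Slamf7 and Cd247 lower in DR double-positive cells. Cd226 had a ratio of 0.36 and missed the limit in 6 alternatives, with 0.26 at 3000 UMIs, Slamf6 had 0.058 with at least 2 UMIs of each selection gene, and Cd247, at -0.37, had -0.24 at 3000 UMIs. Klra8, the receptor Ly49H, was at 818 and 506 CPM, a ratio of -0.69 (-0.75 to -0.64), beside -0.55 in Cd27-only and -0.76 in Itgam-only cells. Of 9 inhibitory receptors, Klrb1b was higher, at 76.4 and 146 CPM, and Klrg1, Klra1 and Klra7 lower. Klra1 missed the limit in 7 alternatives, with 0.036 at 3000 UMIs, and Klra7 missed it at a ratio of at least 1.5. Of 13 cytokine receptors, Il7r and Il18r1 were higher and Il12rb2 and Kit lower. Il18r1, an interleukin-18 receptor chain, was at 215 and 347 CPM, a ratio of 0.69 (0.61 to 0.77), and Il12rb2, an interleukin-12 receptor chain, at 71.5 and 55.1 CPM. Of 17 homing and adhesion genes, S1pr1, Cxcr3, Cxcr4 and Ly6c2 were higher and S1pr5, Cx3cr1, Itga2 and Itga4 lower. Of 13 glycolysis genes, Hk1, Pfkp and Ldha were lower and 0 higher, with a median of -0.075. Ldha missed the limit in 4 alternatives, Hk1 in 2 and Pfkp at a ratio of at least 1.5. Of 14 growth genes only Ran was lower (median 0.014), a share under that of all genes, and its ratio of -0.36 was -0.21 without cycling cells and missed the limit in 7 of the alternatives, and of 7 immediate early genes 0 passed the limit (median 0.10). Of 10 survival genes Bcl2l11 was higher and 2 were lower, among them Bcl2a1b (median -0.083).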

How the data were processed

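Splenic NK cells, isolated by flow cytometry, were profiled with 10x Genomics 3' chemistry, per the labels' protocols, in 1 control and 1 DR library. The authors deposited whole-number UMI counts per gene and barcode, not normalized, per the file headers. Those of the matrices name Cell Ranger 5.0.1, whereas the submitters' processing notes name Cell Ranger 2.1.1 and the mm10 build, and which version made the counts is not settled here. Of the 32285 genes listed, 78 had a symbol that was not unique. Of the list members, 2 (Aldoa and Mx1) were not matched to a single gene. The lowest barcode held 501 UMIs in each library, so no empty droplets were at hand to measure free RNA.

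Barcodes were filtered and gated as stated in the report, and counts were summed per class and library and divided by all UMIs. Ratios carry exact conditional binomial intervals, levels exact Poisson intervals and shares exact Clopper-Pearson intervals, at 95% and for counting error only. With 1 library per group no test was made. Members and gene lists were chosen with earlier results of these data known. The ranking of positions, the genes beyond both classes and the removal of Ccl5 from the sum per cell were decided after the values had been seen. Named genes were the 8 each way with the largest ratio past the limit, in the order of the interval bound closest to 1. To these came up to 4 members per list and a fixed set of stage genes. Mitochondrial, ribosomal protein, immunoglobulin, haemoglobin and T cell receptor genes, other cell types' markers, unnamed gene models and Xist were not ranked. Other list members named in the text are those that passed the limit. Results for a few list members are not reported here.

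Thinning to 3000 UMIs left out 271 control and 213 DR gated cells, of which 9 and 18 were double-positive. Scrublet in scanpy 1.11.5, with an expected rate of 0.05 and 2 simulated doublets for each cell, marked 0 cells in each library with its automatic threshold and so had not worked. Doublets were therefore kept, and the 243 control and 364 DR cells with the highest scores, at 0.8% per 1000 cells, were left out as an alternative. Python 3.11.15, numpy 2.4.6, scipy 1.17.1 and pandas 2.3.3 were used. The calls between libraries in double-positive cells were also run on simulated counts with 2-fold changes. These counts held no variation between cells or between libraries. The run thus did not check changes near the limit, comparisons between classes or intervals for UMIs grouped in cells. The other alternatives were a depth range, at least 2 UMIs of each selection gene, a stricter gate, other scalings, other limits and leaving out cycling cells.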

Additional observations from a re-analysis of the deposited data

Results flagged for a closer look

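Cma1, the chymase gene, was past the limit in opposite directions in neighbouring classes. The log2 ratio of DR over control was -0.37 in double-positive cells and 0.32 in Cd27-only cells, and -0.29 in Itgam-only cells, which is inside the limit. The Cd27-only value only just passes the limit of 0.322. The double-positive value was -0.22 with at least 2 UMIs of each selection gene and -0.31 with a total without mitochondrial and ribosomal protein genes, both inside the limit, which it also missed at a ratio of at least 1.5. With 1 library per group the difference between the classes was not tested.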

How the results depend on the processing

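No paired analysis was possible because each group had 1 library. Among cells of 4000 to 9000 UMIs, 102 genes were higher and 76 lower than in Cd27-only cells, 59 higher and 52 lower than in Itgam-only cells, 892 were lower in DR double-positive cells, and the median positions were 0.652 in control and 0.475 in DR. There the DR ratios of Ly6c2, Tubb5 and Xcl1 turned to -0.10, 0.24 and 0.21. With cells thinned to 3000 UMIs the counts were 65 and 47 against Cd27-only and 32 and 26 against Itgam-only cells, the control position was 0.559 and the double-positive shares were 6.79% and 8.23%. Thinning turned the control ratios of Nolc1 and Odc1 against Cd27-only cells to 0.19 and 0.30, that of Nrgn against Itgam-only cells to -0.11, and the DR ratios of Klra1 and Tubb5 to 0.036 and 0.14. Fewer cells and UMIs enter both settings, and the cause was not tested. Leaving out cycling cells turned the DR ratio of Tubb5 to 0.16.

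At least 2 UMIs of each selection gene left 205 genes lower than in Itgam-only cells, and the stricter gate 112 higher than in Cd27-only cells. A total without mitochondrial and ribosomal protein genes gave 221 lower than in Cd27-only cells, 184 higher than in Itgam-only cells and 530 higher in DR. From a mean of 5 CPM, 266 genes were lower than in Cd27-only cells, 192 higher and 171 lower than in Itgam-only cells, and 596 higher and 914 lower in DR. From 50 CPM the counts, higher then lower, were 134 and 45, 52 and 55, and 92 and 282. A ratio of at least 1.5 gave 37 and 48, 29 and 21, and 57 and 88. Genes at least 2-fold apart put the DR position at 0.491. Of the named genes past the limit, thinning kept 31 of 50 against Cd27-only cells, 24 of 37 against Itgam-only cells and 43 of 60 between libraries, and none passed the opposite limit in the alternatives run.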

Other observations

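Among all genes described, 3 besides Cma1 were past the limit in one direction in double-positive cells and in the other in a single-positive class, when DR was set against control. Zbtb7b, which encodes the transcription factor ThPOK, had log2 ratios of -0.36 in double-positive and 0.36 in Cd27-only cells. Rrp9, a factor of ribosomal RNA processing, had 0.36 and -0.36. Nrm, which encodes the nuclear envelope protein nurim, had -0.47 in double-positive and 0.53 in Itgam-only cells. These genes were picked after their values had been seen, and the differences were not tested.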
